A study of Mus musculus with 6 samples.

Results

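Rab GTPases are small membrane switches, each posted to a particular compartment of the cell. Their transcripts were followed here in cultured neural progenitors, the precursors that give rise to neurons and glia, taken from p53-null mice. Members were all rows of the deposited table whose symbol begins with Rab and a digit, apart from 2 pseudogene rows, which gave 70 of 22057 rows. By name, 58 of the 70 are Rab GTPases. Another 10 encode adaptors or regulators that are not GTPases (Rab11fip1 to Rab11fip5, Rab3gap1, Rab3gap2, Rab3il1, Rab3ip and Rab5if), and 2 are noncoding (Rab10os and Rab26os), so the rule reaches somewhat beyond the GTPases.

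The control group, EF (n = 3), was kept for 4 days in a stem cell medium that held heparin and the epidermal and fibroblast growth factors, with 1 library from each of mice 62, 68 and 69. The group named PDGFA (n = 3) came from these mice too and received platelet-derived growth factor A over the 4 days, at 20 ug per ml as labelled. Both groups carry the p53-null genotype and no wild-type cells were analysed here, and the labels do not say which stretch of the gene is deleted. A factor set was withdrawn and a different one supplied in PDGFA, so every comparison is between 2 whole media. Trp53 itself was read at 2187, 1672 and 2383 normalized counts in EF and 1122, 988 and 1099 in PDGFA, which checks nothing about the genotype while the deleted part is unknown.

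A Rab protein cycles between a GTP-bound form, which recruits effectors such as tethers and motors, and a GDP-bound form, which is extracted into the cytosol. Exchange factors switch it on, GTPase-activating proteins switch it off, and a prenyl group added by Rab geranylgeranyl transferase anchors it to the membrane. In the nervous system Rabs are known for moving synaptic vesicles, for building axons and myelin, and for recycling growth factor receptors.

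Libraries held between 27270246 and 39601349 reads. Values are normalized counts, in which each library's read counts were scaled by its size factor, and libraries are always listed in the order of mice 62, 68 and 69. A gene was called when limma's adjusted p (Benjamini-Hochberg over 17068 genes) was below 0.05, and fold changes are differences of log2(normalized count + 1), PDGFA minus EF, with their SE. Of all genes tested 39.8% were called, 21.8% higher and 18.0% lower in PDGFA. The labelled cell type was checked on 10 markers of neural progenitors, all read in both media: their summed count was 110544 to 218999 in EF and 85957 to 103595 in PDGFA. The progenitor filament Nes fell in PDGFA (log2 fold change -3.70, adjusted p = 0.000253) and the stem cell factor Sox2 rose (0.68, 0.0291), a call absent without EF 68 or any 1 PDGFA library (adjusted p up to 0.115). Of the 10 progenitor markers 4 were called higher and 4 lower. Oligodendrocyte markers summed to 2549 to 4799 in EF and 299907 to 383518 in PDGFA, with all 11 tested called higher and Mog at 0 in every EF library. Astrocyte markers summed to 28661 to 54982 and 163551 to 263533, with 7 of 10 called higher. Sums for neuronal markers were 27041 to 31448 in EF and 38239 to 47429 in PDGFA, with 3 of 10 tested called higher and 7 not called. Most of these sums was Map2, not called, with means of 26266 in EF and 29493 in PDGFA. The neuronal markers called higher were Dcx (means of 131 and 4934), Elavl3 (467 and 7206) and Tubb3 (187 and 765). Oligodendrocyte precursor markers summed to 80436 to 151974 in EF and 128883 to 206131 in PDGFA, with 3 of 8 called higher (Gpr17, Sox10 and C1ql1) and 3 lower (Cspg4, Olig1 and Olig2). Gpr17 alone had a mean of 88744 in PDGFA and 1283 in EF. Of 10 microglial markers 8 are not in the table and the sum of the other two stayed at or below 44.7 in every library. Endothelial markers summed to 136 to 485 in EF and 449 to 718 in PDGFA, of which Kdr had a mean of 61.8 and 517, while the means of the other 5 markers read were lower in PDGFA. Fibroblast and mural markers summed to 78.0 to 142 and 70.4 to 139. The part of these cell types in the Rab values below was not tested, and in bulk RNA fewer cells of a type and less RNA per cell cannot be told apart.

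The promoters of 57 of the members were found in the RefSeq table (build GRCm38.p6), in 75 windows of 300 bases that run from 250 before a transcription start to 50 after it. Most were rich in CpG, with a median of 20 CpG per window against 7 over all 32851 windows, and a median GC content of 62% against 52.7%. The letters GGGCGG, the GC box, stood on either strand in 70.7% of the Rab windows and in 35.7% of all windows. They were found in 22 of 29 windows of members called higher, 7 of 7 called lower and 22 of 35 not called. A member can have several windows, some overlapping, such as those of Rab3il1, so windows are not independent. Rab26 and Rab38, both called lower, had no window, and windows of members not tested are left out of these counts. CACGTG was found in 13.3% of Rab windows (7.15% of all), CCAAT in 41.3% (37.4%), GCGGGAA in 8.0% (4.60%) and ACAAAG in 6.67% (18.7%), each on either strand. The windows of 3 members are printed as sequence because they had large differences between the media: Rab3b and Rab3d, close relatives that went opposite ways, and Rab33a. Their windows are chr4:108878820-108879119 on the plus strand for Rab3b, chr9:21918134-21918433 on the minus strand for Rab3d and chrX:48519035-48519334 on the plus strand for Rab33a. Each is printed 5′ to 3′ along its gene, with GC boxes of either strand in capitals. Rab3b had 4 matches, of which 2 overlap, Rab3d had 3 and Rab33a had 0.
Rab3b promoter: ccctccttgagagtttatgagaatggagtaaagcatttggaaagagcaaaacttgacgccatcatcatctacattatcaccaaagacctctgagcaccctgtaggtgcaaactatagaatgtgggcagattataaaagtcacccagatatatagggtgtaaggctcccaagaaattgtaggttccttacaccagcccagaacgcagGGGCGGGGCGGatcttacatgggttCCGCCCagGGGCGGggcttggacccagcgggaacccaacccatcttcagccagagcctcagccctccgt
Rab3d promoter: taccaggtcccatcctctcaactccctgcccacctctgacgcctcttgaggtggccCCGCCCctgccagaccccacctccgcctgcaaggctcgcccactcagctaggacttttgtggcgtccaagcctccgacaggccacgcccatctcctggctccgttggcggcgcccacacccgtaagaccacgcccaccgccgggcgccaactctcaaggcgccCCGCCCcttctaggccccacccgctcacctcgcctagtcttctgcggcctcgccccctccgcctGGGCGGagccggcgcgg
Rab33a promoter: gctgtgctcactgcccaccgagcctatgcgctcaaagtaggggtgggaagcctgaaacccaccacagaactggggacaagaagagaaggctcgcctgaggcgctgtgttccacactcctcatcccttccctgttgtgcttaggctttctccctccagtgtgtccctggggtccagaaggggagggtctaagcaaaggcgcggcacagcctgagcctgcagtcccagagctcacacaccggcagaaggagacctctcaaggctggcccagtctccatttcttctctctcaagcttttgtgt
Rab3b and Rab33a also held few CpG (8 and 7), near the median of all windows, while Rab3d held 26. These letters describe the windows alone, and no binding was measured.

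Transcripts of Rab genes were more often higher than lower in PDGFA. Of the 65 members with enough reads to test, 30 were called higher (46.2%) and 9 lower (13.8%), over all genes 21.8% and 18.0%. The median log2 fold change was 0.44, while over all genes tested it was -0.01. Among the GTPases alone, 26 of 53 were called higher and 6 lower, with a median of 0.49. At a fold of at least 2, 16 of the 65 were called higher (15.5% of all genes were) and 4 of the 65 lower (12.1%). In either direction a call with such a fold was made for 20 of the 65, and for 27.5% of all genes. The libraries of the media did not overlap for 34 of the 65 that were higher and 10 that were lower. Over all genes that was so for 29.2% and 26.3% (55.5% together). All 39 called members moved the same way in each of the 3 mice and had no overlap between media. Calls on these same values favour media that do not overlap, which in turn fixes the direction in every mouse. Neither property adds support to the calls. EF libraries varied more than PDGFA libraries, with a median SD (log2) over the tested members of 0.303 and 0.11. The EF library of mouse 62 was the lowest of the 3 for 36 of the 65 members (7270 of all 17068 genes), and the PDGFA library of mouse 69 for 38 (7064). Of the 39 calls, 26 held when each library was left out in turn and 13 did not. Of those 26, 7 were not called without both libraries of mouse 68: Rab11a (adjusted p = 0.0585), Rab30 (0.0965), Rab32 (0.0956), Rab36 (0.0789), Rab8b (0.114), Rab11fip2 (0.0820) and Rab3ip (0.0960). Without PDGFA 69 the count called higher dropped to 19, and without both libraries of mouse 68 the counts were 16 higher and 5 lower.

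**Figure D1:**
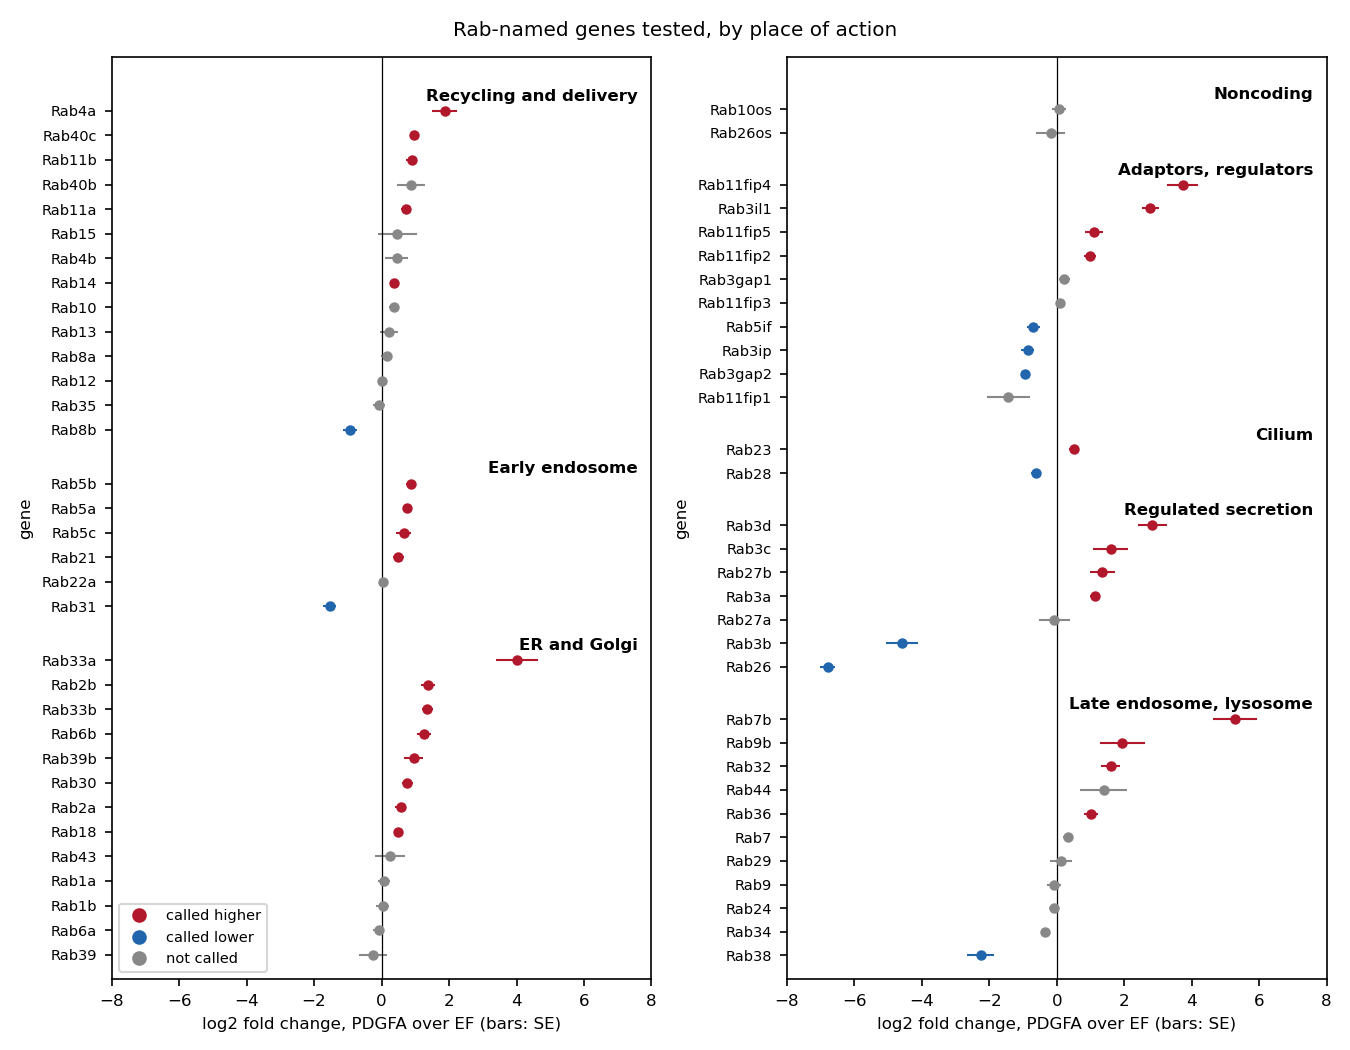
Log2 fold change (PDGFA over EF, x axis) of the 65 tested members, grouped by place of action, with bars for the SE and colours for the call. Rab26 and Rab3b lie farthest to the left at -6.79 and -4.59, and Rab7b and Rab33a farthest to the right at 5.28 and 4.02.

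The Rabs of regulated secretion, which bring synaptic vesicles and secretory granules to the plasma membrane, held the largest falls among the members, Rab26 and Rab3b, beside several rises. Of 8, 7 were tested, 4 were called higher (57.1%) and 2 lower (28.6%), over all genes 21.8% and 18.0%. Rab26, a Rab of secretory granules and synaptic vesicles (ENSMUSG00000079657.10, chromosome 17, 24527241 to 24534210, GRCm38), read 1803, 2025 and 1669.6 in EF and 16.1, 16.2 and 14.3 in PDGFA. All 3 PDGFA libraries lay far below all EF libraries: the means of 1833 ± 180 and 15.6 ± 1.07 (SD, n = 3) differed 118-fold. Its log2 fold change was -6.79 (SE 0.22, limma adjusted p = 7.87e-06), the largest fall among the members. Exons of Traf7 and of a transcript on the opposite strand overlap 10.3% of its exonic bases, and the library kit does not mark strand. The noncoding row named for the opposite strand of this gene, Rab26os, was not called: it read 67.0, 67.6 and 174 in EF and 90.8, 87.8 and 67.2 in PDGFA (log2 fold change -0.18, adjusted p = 0.758).

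The Rab3 proteins, which prime synaptic vesicles for release, split. Rab3b (ENSMUSG00000003411.10, chromosome 4, 108879063 to 108943324) read 4768, 6738 and 11641 in EF and 179, 248 and 598 in PDGFA. The media did not overlap, and mouse 69 was highest and mouse 62 lowest in both. Rab3b fell 22.6-fold on its means, with a log2 fold change of -4.59 (SE 0.48, limma adjusted p = 0.000339). Rab3d (ENSMUSG00000019066.13, chromosome 9, 21907491 to 21918192), known from secretory granules, read 28.7, 56.3 and 98.4 in EF and 339, 391 and 465 in PDGFA. It rose 6.51-fold, with a log2 fold change of 2.84 (SE 0.44, limma adjusted p = 0.00203), and again mouse 69 was highest in both media. Rab3a, the most abundant Rab3 of brain synapses, read 591, 555 and 548 in EF and 1363, 1234 and 1147 in PDGFA. The 3 libraries of each medium were tight, and the log2 fold change was 1.14 (SE 0.14, adjusted p = 0.000762). Rab3c, the least abundant of the 4 per length, read 50.8, 124 and 30.7 in EF and 211, 212 and 126 in PDGFA. The EF library of mouse 68 nearly reached the PDGFA library of mouse 69, and the rise (log2 fold change 1.60, adjusted p = 0.0424) was not called without EF 62, EF 69 or any 1 PDGFA library (adjusted p between 0.0644 and 0.135), nor by edgeR on the recovered reads (0.0713).

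Counts per kilobase were divided by the length of all annotated exons of a gene, not of the transcripts expressed. Levels of different genes can thus be compared only roughly. Per kilobase, Rab3b made up 83.0%, 87.5% and 92.4% of the summed Rab3 count in EF and 6.7%, 9.6% and 21.0% in PDGFA. Rab3a contributed 11.5% ± 4.7 in EF and 73.2% ± 8.5 in PDGFA (SD, n = 3), and that of Rab3d 0.6% ± 0.1 and 12.3% ± 1.6. By this measure the main Rab3 transcript was Rab3b in each EF library and Rab3a in each PDGFA library. With 3 libraries against 3 an exact two-sided permutation test cannot go below p = 0.1, so shares are given by their ranges. Summed over the 8 secretion Rabs, EF libraries held 2269, 2902 and 4169 counts per kilobase and PDGFA libraries 775, 748 and 824. Rab27b, which docks secretory granules, was scarce: it read 15.3, 10.1 and 11.5 in EF and 40.7, 30.6 and 27.8 in PDGFA. Its rise (log2 fold change 1.35, adjusted p = 0.0243) was not called without EF 68 or any 1 PDGFA library (0.0551 to 0.106) or with the mouse as a block (0.0583). Rab27a, its partner in granule transport, was not called (log2 fold change -0.07, adjusted p = 0.913), and Rab37 was not tested, with at most 3.58 counts in any library.

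**Figure D2:**
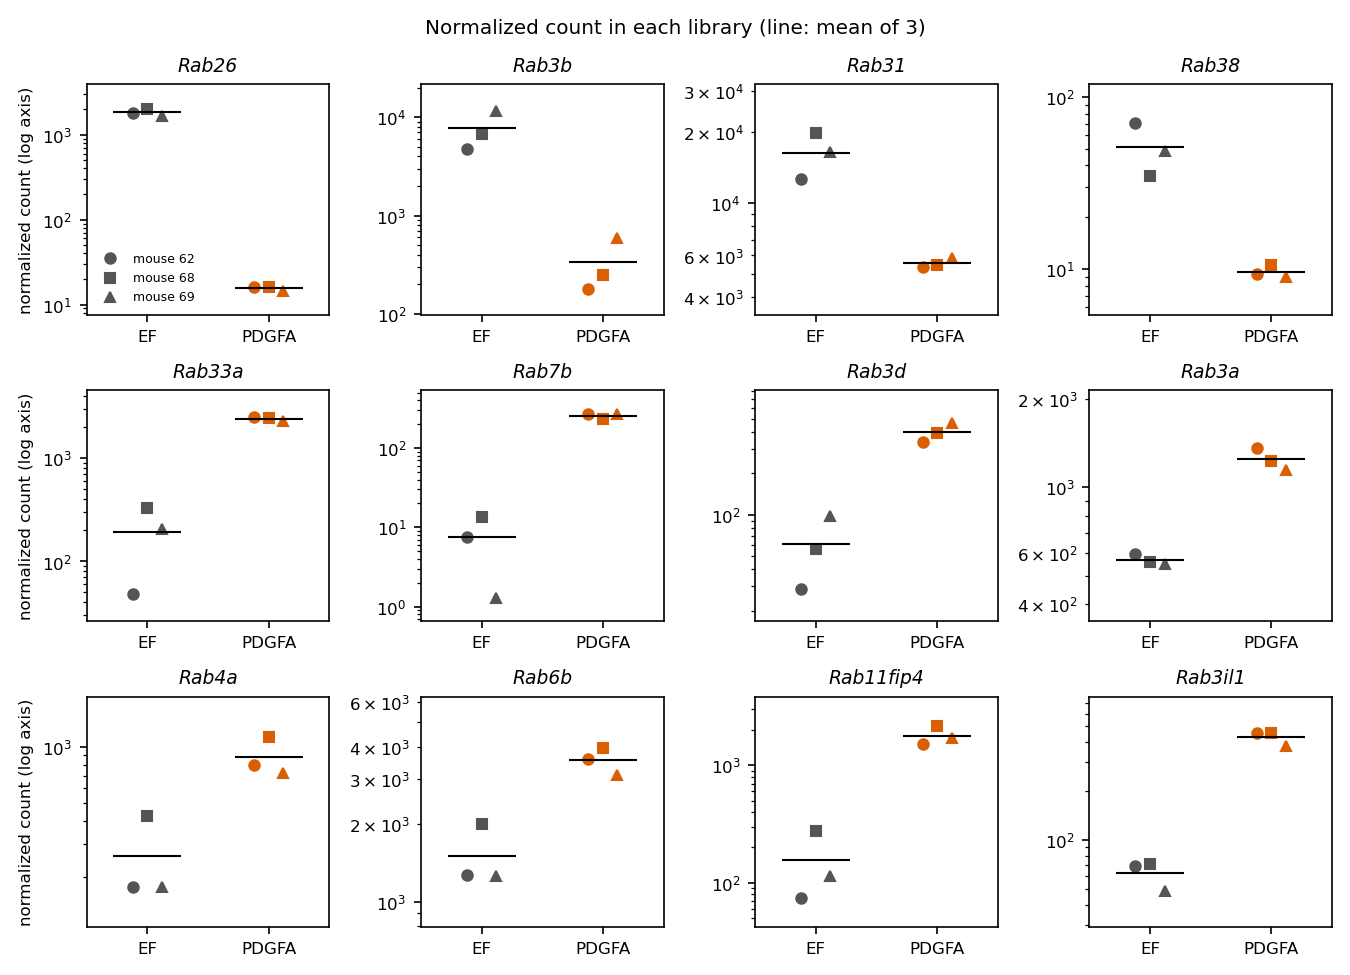
Normalized count (log axis) of 12 members in each library, EF in grey and PDGFA in orange, with a symbol for each mouse and a line at the mean of 3. For each gene shown the EF and PDGFA libraries do not overlap: Rab26 lies between 1669.6 and 2025 in EF and between 14.3 and 16.2 in PDGFA.

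**Figure D3:**
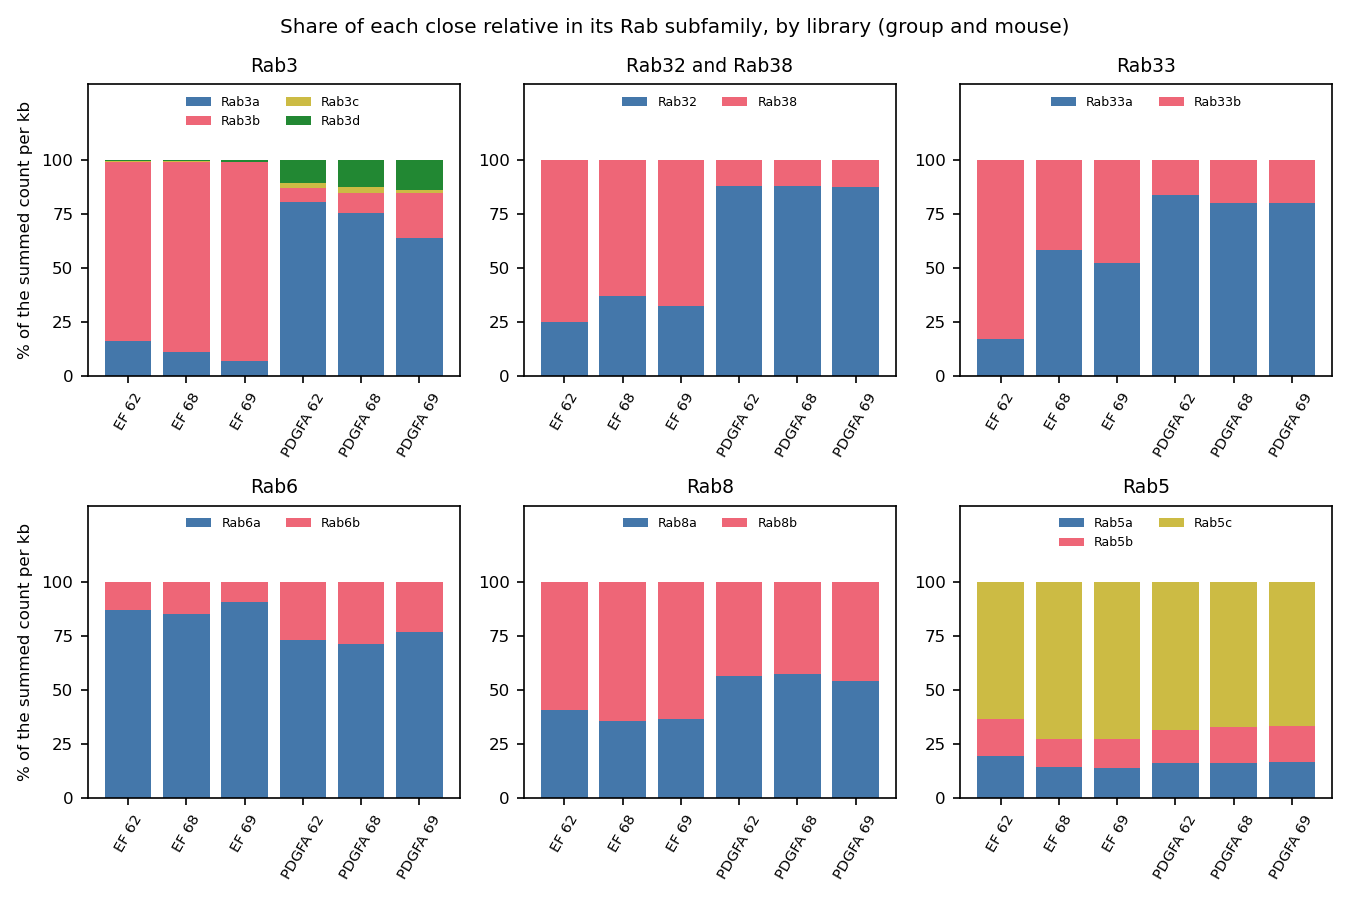
Percent of the summed count per kilobase that each close relative contributes (y axis) in the 6 libraries, for 6 Rab subfamilies. Rab3b fills 83.0% to 92.4% of the Rab3 bar in EF and 6.7% to 21.0% in PDGFA, while the 3 Rab5 genes keep overlapping shares.

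Golgi and endoplasmic reticulum Rabs carry cargo along the early secretory route. All 13 were tested, 8 were called higher (61.5%) and 0 lower by limma, over all genes 21.8% and 18.0%. Their median log2 fold change was 0.56. The counts were also 8 and 0 at an unadjusted p under 0.05 and by edgeR and DESeq2 on the recovered reads. Rab33a, a Golgi-related Rab of neurons (ENSMUSG00000031104.2, chromosome X, 48519285 to 48530232), read 47.9, 328 and 205 in EF and 2496, 2447 and 2322 in PDGFA. EF 62 was far below the other EF libraries, and every PDGFA library was above all of EF. It rose 12.5-fold on its means, with a log2 fold change of 4.02 (SE 0.62, limma adjusted p = 0.00204), which was 3.22 without EF 62. Its close relative Rab33b, which has a role in autophagy, had EF counts of 709, 709 and 569 and PDGFA counts of 1467, 1837 and 1754 (log2 fold change 1.35, adjusted p = 0.000654). A gene on the opposite strand overlaps 18.7% of the exonic bases of Rab33b. Per kilobase, Rab33a made up 17.1%, 58.5% and 52.3% of the pair in EF and 80.2% to 83.9% in PDGFA.

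Rab6 proteins act in traffic at the Golgi, and the isoform enriched in neurons, Rab6b, read 1273, 1996 and 1259 in EF and 3576, 3951 and 3099 in PDGFA (log2 fold change 1.26, SE 0.21, adjusted p = 0.00286). The widespread isoform Rab6a read 6236, 8512 and 8986 in EF and 7238, 7246 and 7582 in PDGFA and was not called (-0.09, adjusted p = 0.708). Mrpl48 on the opposite strand overlaps 19.0% of the exonic bases of Rab6a. Rab6b accounted for 9.4% to 14.8% of the pair in EF and 23.2% to 28.8% in PDGFA. Rab2 proteins work between the Golgi and the endoplasmic reticulum. Rab2b read 568, 572 and 371 in EF and 1272, 1249 and 1329.6 in PDGFA (log2 fold change 1.38, SE 0.20, adjusted p = 0.00161), although other genes on the opposite strand overlap 64.0% of its exonic bases and their reads cannot be told apart. The more abundant Rab2a read 2663, 3901 and 3701 in EF and 5180, 5267 and 4537 in PDGFA (0.56, adjusted p = 0.0377). Rab18, found on lipid droplets, Rab30, a Golgi Rab, and Rab39b, a neuronal Rab, rose by log2 fold changes of 0.50, 0.76 and 0.95 (adjusted p = 0.0164, 0.00874 and 0.0281). Rab2a and Rab18 were not called without any 1 PDGFA library (0.0694 to 0.137 and 0.0583 to 0.0830) or with the mouse as a block (0.0631 and 0.0554). Rab39b was not called without EF 68 or any 1 PDGFA library (0.0547 to 0.0907). A gene on the opposite strand overlaps 18.6% of its exonic bases. The pair that opens the route from the endoplasmic reticulum, Rab1a and Rab1b, was not called, with log2 fold changes of 0.08 and 0.04. Rab39 (-0.27) and Rab43 (0.26) were not called either, and 90.3% of the 50-base stretches of Rab43 are shared with a readthrough transcript, so its counts are uncertain.

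Early endosome Rabs act where freshly internalized receptors arrive. Of 8, 6 were tested, 4 were called higher (66.7%) and 1, Rab31, lower (16.7%), over all genes 21.8% and 18.0%. Rab31, which moves cargo between the trans-Golgi and endosomes (ENSMUSG00000056515.9, chromosome 17, 65651729 to 65772752), read 12693, 19897 and 16544 in EF and 5353, 5461 and 5857 in PDGFA. The lowest EF library was more than double the highest PDGFA library, and the log2 fold change was -1.54 (SE 0.18, limma adjusted p = 0.000628). The 3 Rab5 genes, the master Rabs of the early endosome, all rose. Rab5b read 1479.6, 1739 and 1708 in EF and 2765, 3083 and 3119 in PDGFA (log2 fold change 0.87, SE 0.13, adjusted p = 0.00192). Rab5a rose by 0.75 (adjusted p = 0.00247). Rab5c, the most abundant, read 2861, 5074 and 4756 in EF and 6488, 6519 and 6388 in PDGFA (0.66, adjusted p = 0.0493). The shares of the 3 within the Rab5 sum overlapped between the media, with Rab5c at 63.3% to 72.7% in EF and 66.6% to 68.7% in PDGFA. Rab21, which carries integrins, rose by 0.49 (adjusted p = 0.0471). Rab5c was not called without any 1 PDGFA library (adjusted p 0.120 to 0.134), with the mouse as a block (0.0546) or by edgeR (0.0533). Rab21 kept its call without EF 69, but not without any of the other libraries (0.0535 to 0.150) or with the block (0.0609). Rab22a, the closest relative of Rab31, was not called, with a log2 fold change of 0.05 (adjusted p = 0.785).

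Recycling and delivery Rabs return receptors to the surface or carry new membrane there. Of 15, 14 were tested, 5 were called higher (35.7%) and 1 lower (7.14%), with a median log2 fold change of 0.41. In either direction 42.9% were called, near the 39.8% of all genes. Rab4a, the Rab of fast recycling, read 176, 428 and 176 in EF and 799, 1134 and 728 in PDGFA. Mouse 68 was highest in both media, no library overlapped, and the log2 fold change was 1.87 (SE 0.37, limma adjusted p = 0.00653). The Rabs of slow recycling, Rab11a and Rab11b, rose by 0.71 and 0.89 (adjusted p = 0.00700 and 0.00522), and their shares of the pair overlapped between the media. Rab40c, a Rab with a SOCS box that joins a ubiquitin ligase, read 739, 781 and 740 in EF and 1406, 1573 and 1463 in PDGFA (0.97, SE 0.13, adjusted p = 0.00106). Rab14, of endosome to Golgi traffic, rose by 0.37 (adjusted p = 0.0431), a call absent without EF 68 or any 1 PDGFA library (0.0754 to 0.188) and with the mouse as a block (0.136).

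The only recycling Rab called lower was Rab8b, of exocytic traffic, which read 1926, 3053 and 3255 in EF and 1404, 1390 and 1415 in PDGFA (log2 fold change -0.93, SE 0.21, adjusted p = 0.0105). Its relative Rab8a was not called (0.15, adjusted p = 0.495). Rab8a was 35.5% to 40.6% of the pair in EF and 54.2% to 57.4% in PDGFA, so the order of the pair differed between the media. Rab10, which brings the glucose transporter to the surface, was the most abundant of the class, with 7855, 9588 and 8402 in EF and 10949.5, 11553 and 10608 in PDGFA, and was not called (0.36, adjusted p = 0.0722). The other members not called ran from -0.09 for Rab35 to 0.88 for Rab40b, which was called without EF 62 (adjusted p = 0.0434). Rab4b was among them, but 93.0% of its 50-base stretches are shared, mainly with a readthrough transcript, so its share of the Rab4 pair is uncertain.

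Late endosome, lysosome and autophagy Rabs held some of the largest folds among scarce members. Of 12, 11 were tested, 4 were called higher (36.4%) and 1 lower (9.09%). In either direction 45.5% were called, near the 39.8% of all genes. Rab7b, which works between late endosomes and the trans-Golgi (ENSMUSG00000052688.12, chromosome 1, 131688695 to 131715439), read 7.66, 13.5 and 1.28 in EF and 271, 232 and 265 in PDGFA. It was near the floor in EF and tight in PDGFA, and its log2 fold change was 5.28 (SE 0.65, limma adjusted p = 0.000719), the largest rise among the members. That value was 4.52 without EF 69 and 5.92 without both libraries of mouse 68. Rab7, the main late endosome Rab, made up 98.1% ± 0.2 of the pair per kilobase in PDGFA (SD, n = 3). It read 5178, 5668 and 6716 in EF and 7303, 7396 and 7293 in PDGFA and was not called (0.33, adjusted p = 0.0967), except without EF 69 (0.0294).

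Rab32 and Rab38, relatives that build melanosomes and other lysosome-related organelles, went opposite ways. Rab38 read 70.9, 34.9 and 48.6 in EF and 9.34, 10.5 and 8.96 in PDGFA (log2 fold change -2.25, SE 0.39, adjusted p = 0.00359). Rab32 read 35.4, 30.4 and 34.5 in EF and 100.2, 116 and 94.1 in PDGFA (1.60, SE 0.29, adjusted p = 0.00397). Neither overlapped between the media, and Rab32 was 25.2% to 37.0% of the pair per kilobase in EF and 87.6% to 88.2% in PDGFA. Markers of melanocytes and Schwann cells, 7 of 8 in the table and Tyr not among them, summed to 1052 to 1947 in EF and 1377 to 1816 in PDGFA, but single markers differed. Mitf, Dct and Pmel, of melanocytes, were called higher (log2 fold changes of 2.53, 4.51 and 2.71), and Pmp22 and Prx, of Schwann cells, lower (-2.05 and -0.71, the latter called in only 1 of the 6 fits that left out a library). The part of these cells in the values of the pair was not tested. Rab36 read 412, 313 and 268 in EF and 663, 613 and 714 in PDGFA (1.02, SE 0.21, adjusted p = 0.00693). Rab9b read 8.62, 36.0 and 6.39 in EF and 80.6, 47.7 and 36.7 in PDGFA, where EF 68 came within 1 count of PDGFA 69. Its log2 fold change of 1.94 (adjusted p = 0.04996) was 2.66 without EF 68, and it was not called without any other single library (0.0831 to 0.159) or by edgeR or DESeq2 on the recovered reads. The 6 members not called ran from -0.34 for Rab34 to 1.40 for Rab44, and 62.4% of the exonic bases of Rab24, of autophagy, overlap Prelid1 on the opposite strand.

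Both members placed in the cilium class were called, in opposite directions, and no member was placed in more than 1 class. Rab28 read 1483, 1119 and 1289 in EF and 914, 837 and 783 in PDGFA (log2 fold change -0.61, SE 0.16, limma adjusted p = 0.0191). Rab23, which holds back hedgehog signalling, read 893, 965 and 1122 in EF and 1415, 1485 and 1362 in PDGFA (0.52, SE 0.14, adjusted p = 0.0240). Rab28 was not called without PDGFA 68 or PDGFA 69 (0.0750 and 0.0823), and Rab23 not without EF 68 or any 1 PDGFA library (0.0570 to 0.118) or with the mouse as a block (0.0662).

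The 5 remaining GTPases had too few reads to test, with at most 15.8 counts in any library: Rab17, Rab20, Rab25, Rab37 and Rab42. With no filter on low counts, Rab17, Rab25 and Rab42 were called lower (log2 fold changes of -2.12, -1.80 and -1.66) and the other two were not.

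Per kilobase, the order of the 58 GTPases differed between the media. In EF, Rab31 led with 4295 ± 945 counts per kilobase (SD, n = 3), and its libraries lay above all those of the next, Rab10 (2452 ± 252). Rab7, Rab3b, Rab6a, Rab1b, Rab5c, Rab2a and Rab1a followed, each overlapping its neighbour in the order. In PDGFA, Rab10 led with 3142 ± 136, followed by Rab5c (2947 ± 31.1), Rab7 (2809 ± 21.8), Rab2a (2342 ± 187) and Rab33a (2091 ± 77.4), of which Rab2a and Rab33a overlapped. Rab33a stood at rank 32 in EF and rank 5 in PDGFA, while Rab31 went from rank 1 to 9, Rab3b from 4 to 38 and Rab26 from 12 to 51. Other members moved too, such as Rab8b from rank 16 to 31, Rab7b from 56 to 41 and Rab6b from 26 to 14. The sum over the 58 GTPases was 31037 ± 4869 counts per kilobase in EF and 33655 ± 718 in PDGFA, with overlapping libraries. By this measure the total differed by less than the spread of the EF libraries, although single members differed by up to 118-fold.

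**Figure D4:**
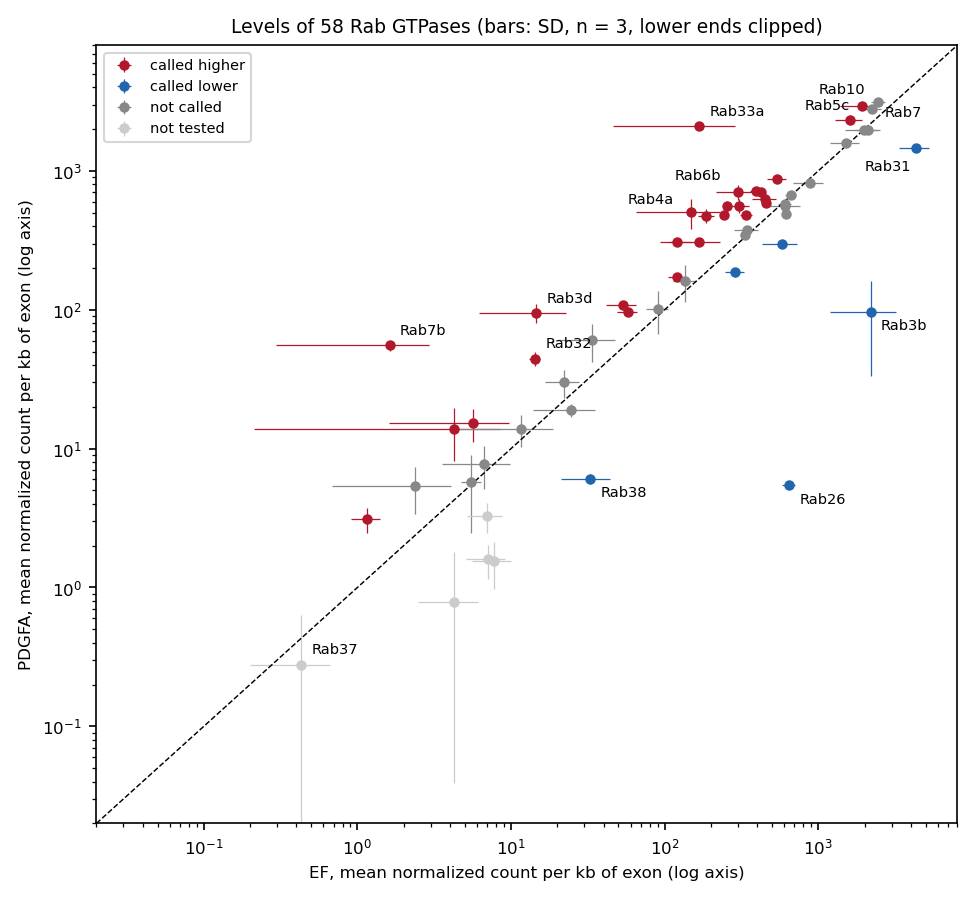
Mean normalized count per kilobase of exon of the 58 GTPases in EF (x axis) and PDGFA (y axis), both log axes, with bars for the SD (n = 3) and a dashed line of equality. Rab26 (643 and 5.46) lies farthest below the line, and Rab7b (1.62 and 55.4) and Rab33a (167 and 2091) far above it.

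Among the 10 adaptors and regulators that carry a Rab name, 4 were called higher (40.0%) and 3 lower (30.0%). Over all genes it was 21.8% and 18.0%. Rab11fip4, an adaptor of Rab11, read 73.7, 278 and 114 in EF and 1507, 2175 and 1706 in PDGFA. Mouse 68 was highest in both media, and the log2 fold change was 3.73 (SE 0.45, limma adjusted p = 0.000640). Rab3il1, an exchange factor also called GRAB, read 68.95, 70.9 and 48.6 in EF and 456, 453 and 380 in PDGFA (2.77, SE 0.25, adjusted p = 0.000180), the smallest p of the class. Rab11fip5 read 486, 673 and 332 in EF and 917, 997 and 1193 in PDGFA (1.11, SE 0.27, adjusted p = 0.0143), a call absent without PDGFA 69 (0.0611). Rab11fip2 rose by 0.99 (adjusted p = 0.00455).

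Rab3gap2 and Rab3gap1 form the complex that inactivates Rab3 and activates Rab18. Rab3gap2 read 5786, 6228 and 6039 in EF and 3267, 3036 and 3017 in PDGFA (log2 fold change -0.95, SE 0.12, adjusted p = 0.000699), with genes on the opposite strand overlapping 19.3% of its exonic bases. Rab3gap1 was not called (0.23, adjusted p = 0.270). Rab3ip, an exchange factor of Rab8 known as Rabin8, fell by 0.86 on the log2 scale (adjusted p = 0.0110). Rab5if read 1470, 1933 and 2359 in EF and 1243, 1142 and 1115 in PDGFA (-0.69, adjusted p = 0.0233), a call absent without EF 68 or any 1 PDGFA library (0.0578 to 0.0863). Sla2 on the opposite strand overlaps 25.5% of the exonic bases of Rab5if. Rab11fip1 (-1.44) and the abundant Rab11fip3 (0.11) were not called, nor were both noncoding rows, with adjusted p of 0.758 for Rab26os and 0.806 for Rab10os.

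Genes that run the Rab cycle were looked at beside the members, in 6 lists of 137 genes, of which 134 are in the table and 130 were tested. Of these 51 were called higher (39.2%) and 9 lower (6.92%), over all genes 21.8% and 18.0%. Their median log2 fold change was 0.34. The calls were 30 higher without PDGFA 68, and 20 higher and 5 lower without both libraries of mouse 68. GTPase-activating proteins, which switch Rabs off, had 20 of 38 called higher and 4 lower. Effectors, which carry out the Rab's task, had 17 of 45 higher and 0 lower by limma, while 1, Bicd2, a motor adaptor, was lower at an unadjusted p under 0.05 and was called lower by edgeR and DESeq2. Exchange factors had 8 of 30 higher and 3 lower, with a median of 0.06. Calls in either direction made up 36.7% of exchange factors, 37.8% of effectors and 63.2% of GTPase-activating proteins, against 39.8% of all genes. Exchange factors and effectors were thus called about as often as genes at large.

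Among the genes of prenylation and membrane cycling, Gdi2, which extracts Rabs from membranes, was not called (log2 fold change -0.38, limma adjusted p = 0.121), except without EF 62 (0.0333). The subunits of the Rab prenyl transferase moved apart: Rabggta rose by 0.84 (adjusted p = 0.00289) and Rabggtb fell by 0.68 (adjusted p = 0.0285), the latter not called without any 1 PDGFA library (0.0672 to 0.112).

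Among exchange factors Dennd2a had the smallest p, reading 11122, 9435 and 10991 in EF and 2750, 2848 and 2511 in PDGFA (log2 fold change -1.96, SE 0.13, adjusted p = 4.83e-05). Rin3 and Rin2, exchange factors for the Rab5 group, went opposite ways. Rin3 had 86.2, 163 and 279 in EF and 25.5, 33.4 and 27.8 in PDGFA (-2.42, adjusted p = 0.00477), and Rin2 had means of 778 ± 87.7 and 2248 ± 420 (1.52, adjusted p = 0.000542). Dennd1c was read in 1 EF library only, at 3.83, and at 25.1 to 32.3 in PDGFA (4.09, adjusted p = 0.00286, and 4.85 without EF 62).

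The GTPase-activating proteins Tbc1d1 and Tbc1d4, relatives that act on Rab10 and other Rabs of glucose transporter traffic, also diverged. Tbc1d1 read 4688, 5240 and 9647 in EF and 800, 818 and 946 in PDGFA (log2 fold change -2.86, SE 0.27, adjusted p = 0.000201). Tbc1d4 read 824, 977 and 995 in EF and 2735, 2835 and 2289 in PDGFA (1.49, SE 0.15, adjusted p = 0.000285). Tbc1d31 fell by 1.85 on the log2 scale and Grtp1 rose by 2.20 (adjusted p = 0.000254 and 0.000238).

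The effectors with the smallest p were Mical3 and Rubcn. Mical3, which binds Rab8 group proteins, went from 2907 ± 316 to 8420 ± 803 (log2 fold change 1.54, adjusted p = 0.000200). Rubcn, a Rab7 effector that restrains autophagy, went from 2672 ± 337 to 6899 ± 301 (1.37, adjusted p = 0.000273). Effectors of Rab27, Myrip and Sytl5, are named here after their values were seen, for their size. Myrip read 0.958, 11.3 and 8.95 in EF and 213, 211 and 396 in PDGFA (5.40, adjusted p = 0.000973, and 4.57 without EF 62). Sytl5 read 4.79, 25.9 and 0 in EF and 386, 420 and 287 in PDGFA (6.07, adjusted p = 0.00344), which was 7.23 without EF 68 and 4.85 without EF 69.

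Of the kinases that phosphorylate Rabs, Lrrk1 read 436, 471 and 620 in EF and 51.8, 44.9 and 34.0 in PDGFA (log2 fold change -3.52, SE 0.27, adjusted p = 8.78e-05). Lrrk2 was not called (-0.72, adjusted p = 0.0760), except without PDGFA 69 (0.0269). Ppm1h, a phosphatase of Rabs, went from 326 ± 117 to 905 ± 51.5 (1.55, adjusted p = 0.00516). Among 6 Rab-like GTPases, Ift22, of transport inside cilia, rose by 1.23 (adjusted p = 0.00197) and Rabl2 by 0.61 (adjusted p = 0.0140), the latter not called without any 1 PDGFA library (0.0510 to 0.0824) or with the mouse as a block (0.0538).

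**Figure D5:**
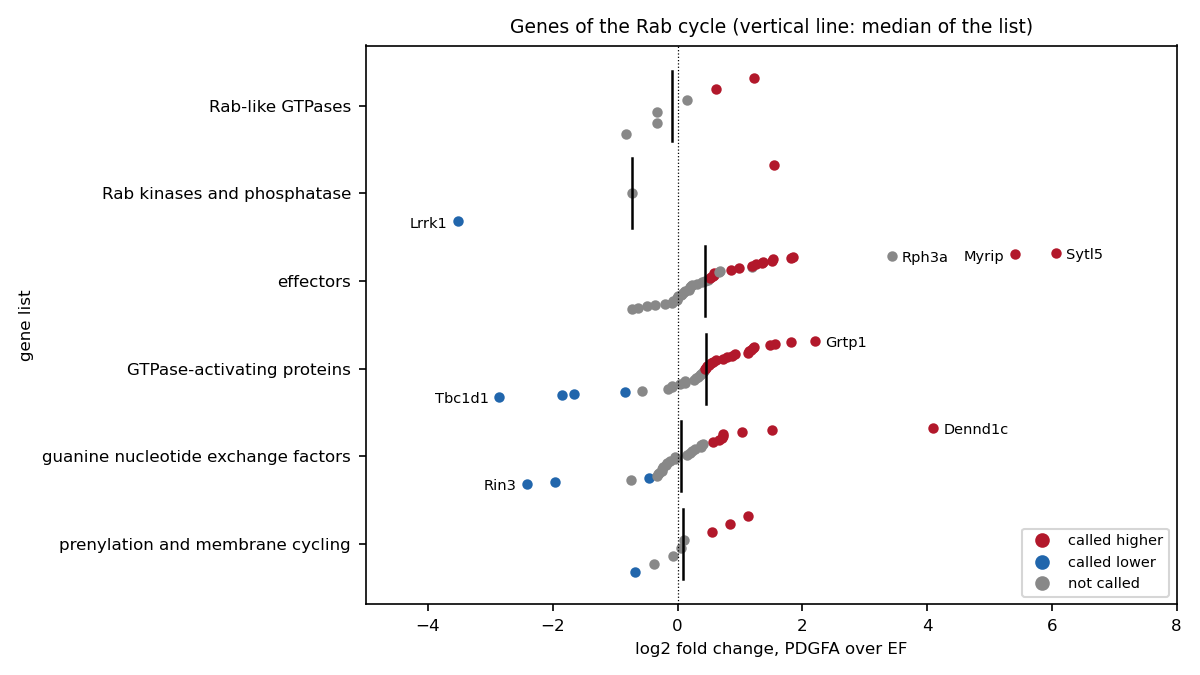
Log2 fold change (PDGFA over EF, x axis) of the 130 tested genes of the Rab cycle in 6 lists, with a point per gene coloured by call and a line at the median of each list. Effectors have 17 genes called higher and 0 lower by limma, and Lrrk1 at -3.52 and Sytl5 at 6.07 mark the ends of the range.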

How the data were processed

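RNA of neural progenitor cells of 3 p53-null mice was sequenced after 4 days in each of 2 media (6 libraries). RNA was purified on columns, 1.3 ug of total RNA went into each library, and the kit, NEBNext Ultra II E7770, does not mark strand, per the labels' protocols. The authors deposited 1 table of normalized signal, read counts per gene divided by a size factor per library. The tools were FastQC, STAR and DESeq2 and the build was mm10, also named GRCm38, per the submitters' processing notes. The annotation release is not given in the sources used here. Dividing each deposited value by the value of 1 read gave whole reads for 100% of values (within 0.001), 27270246 to 39601349 per library, and size factors of 0.782 to 1.18. A gene's total over the libraries was at least 10 reads.

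Genes with a mean normalized count of at least 10 (17068, with 4989 left out) went to limma 3.58.1 on the scale log2(normalized count + 1) (mean trend, two-sided, group as the only term) in R 4.3.3, with Benjamini-Hochberg adjustment at 0.05. Fold changes on this scale understate changes of low genes, whose precision is limited by depth. Alternatives included DESeq2 1.42.0 and the quasi-likelihood test of edgeR 4.0.16 on recovered reads, a mouse block, other pseudocounts, filters and scalings, and leaving out libraries. The test was checked on simulated reads with few changed genes and the same spread in both groups. That check does not cover the larger spread of the EF libraries. The labels do not say whether the cultures of a mouse were set up separately for each library, so p-values measure the spread between these libraries.

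The same mice gave both groups, so libraries are paired by animal. Deviations from the group means correlated at -0.091, 0.11 and -0.11 between the libraries of mice 62, 68 and 69.

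All 70 members were matched by symbol to GENCODE M21 (GRCm38), which gave lengths, positions, overlaps and shared 50-base stretches, and promoters from RefSeq (GRCm38.p6). The members and lists were chosen with earlier results of these data known. Values per library are given for called members with a fold of at least 2, and in each class for the called member with the smallest p in each direction and the most abundant one. In each list of the Rab cycle the 2 called genes with the smallest p in each direction are named, apart from a gene that is not reported here.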

Additional observations from a re-analysis of the deposited data

How the results depend on the processing

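None of the 39 called members reversed direction in any of the 17 alternatives that tested it (Rab9b, Rab27b and Rab38 were below the filter at a mean of 50), while some members not called changed sign (Rab15, 0.47, was -0.16 without EF 62). Of the 39, 19 were called in every alternative that tested them, among them 14 of the 20 with a fold of at least 2. With the mouse as a block, the paired fit, 23 members were called higher and 9 lower, against 30 and 9, and over all genes 3213 and 2626, against 3720 and 3076. In all, 7 members were not called in the block fit (adjusted p 0.0546 to 0.136), and of the 20 with a fold of at least 2 only Rab27b was among them. Leaving out 1 library gave 19 to 29 members higher and 7 to 9 lower, 30 to 56 genes of the Rab cycle higher and 7 to 12 lower, and 2306 to 4213 genes higher and 1855 to 3848 lower in the whole table. The lowest were 19 members without PDGFA 69, and 30 genes of the Rab cycle and 2306 and 1855 genes in the whole table without PDGFA 68. Without both libraries of mouse 68 there were 16 members higher and 5 lower, 20 and 5 genes of the Rab cycle, and 1945 and 1335 genes in the whole table, with 2 libraries per group. The members' median log2 fold change of 0.44 was 0.37 with edgeR, 0.36 with DESeq2, 0.35 without a filter and 0.35 without EF 62, and 0.35 to 0.50 when each library was left out. The cause of these differences was not tested, and the fits that leave out libraries also rest on fewer of them. Scaling to library totals lowered the median of all genes by 0.06 (log2) and gave 26 members higher and 9 lower. Depth limits the scarce members, such as Rab9b, Rab27b and Rab3c, and the 5 not tested.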
